A study of Mus musculus with 4 samples.

Results

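The open chromatin linked to 10 circadian clock genes was described in subcutaneous white adipose tissue of wild-type mice with ATAC-seq, an assay that marks accessible DNA by inserting sequencing adapters into it with a transposase. The genes were Clock, Npas2, Per1, Cry2, Nr1d1, Rora, Dbp, Hlf, Bhlhe40 and Gm129 (current symbol Ciart), and they were taken by name from the deposited gene table, which paired 11993 genes in all with nearby open regions. The series held 2 libraries of males (WT, male 1 and male 2) and 2 libraries of females (WT, female 1 and female 2), each made from nuclei of frozen, ground fat. The labels give no age, strain or time of day of collection, and nothing in them ties the 2 samples of a sex to different mice, so p-values measure only the spread between these samples, which may be technical.

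The clock runs as a feedback loop of transcription. CLOCK or its paralogue NPAS2 pairs with BMAL1 (Arntl) and binds E-boxes in the Per and Cry genes, whose proteins return to the nucleus and repress that pair. In a second loop NR1D1 represses and RORA activates Arntl, and the output factors DBP and HLF pass the rhythm to further genes; in adipose tissue the loop is known to time lipid storage and release.

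Height here means the highest number of overlapping sequenced tags in an open region, multiplied by 1 factor per library, and a gene's height is the mean over the regions linked to it. The sources used here give neither the basis of that factor nor the reads per library, so the depth is unknown and no counting interval is given. The libraries differed throughout. The 2 male libraries had 5484 and 4049 called peaks and a median gene height of 24.0 and 14.7, against 10238 and 8022 peaks and a median of 38.0 and 30.2 in the 2 female libraries. Over all genes, the median difference of log2(height + 9), male minus female, was -0.63, and each clock gene is therefore also given relative to it. Of 10 adipocyte markers 6 had a linked region (Cfd, Cidec, Pparg, Lipe, Cebpa and Retn), with summed heights of 122.6 and 82.6 in males and 238.5 and 210.4 in females, while Adipoq, Lep, Plin1 and Fabp4 had no row in the gene table used here. Of 7 epithelial markers 4 had a region, with summed heights of 45.6 and 18.4 in males and 116.0 and 92.9 in females. Progenitor markers (3 of 6), endothelial markers (3 of 5), macrophage markers (2 of 5), skeletal muscle markers (1 of 5) and T and B cell markers (1 of 5) also had lower summed heights in the males than in the females, and the part of tissue makeup in the results below was not tested. In whole tissue, fewer cells of a type and less open chromatin per cell cannot be told apart.

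The 10 genes were linked to 25 open regions, of which 16 were linked to another gene as well. Only Rora and Hlf had no shared region, and 7 genes shared every region they had, so the same measurements also enter the heights of their neighbours, which can average over further regions. Upstream of the gene start lay 12 regions, inside the gene 9 and downstream of it 4. A region with its summit within 1000 bp of the gene start was found for 5 of the 10 genes (Clock, Cry2, Dbp, Hlf and Bhlhe40), against 36 of 40 other clock-related genes (90.0%) and 8363 of all 11993 genes (69.7%). Positions below are in mm10, and distances are from the gene start to the summit, negative where the summit is upstream.

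The promoters of the genes with such a region are shown because each printed window overlaps an open region linked to its gene. They run from 250 bases before to 50 bases after a RefSeq start (GRCm38.p6, the assembly of mm10), 5′ to 3′ on the gene's strand, with capitals marking the bases that lie inside an open region linked to the gene. The Clock promoter is chr5:76304743-76305042 (minus strand), at an alternative RefSeq start of the gene, that of Cry2 chr2:92434020-92434319 (minus), that of Dbp chr7:45704997-45705296 (plus) and that of Hlf chr11:90390868-90391167 (minus). Bhlhe40 is named only.
Clock promoter: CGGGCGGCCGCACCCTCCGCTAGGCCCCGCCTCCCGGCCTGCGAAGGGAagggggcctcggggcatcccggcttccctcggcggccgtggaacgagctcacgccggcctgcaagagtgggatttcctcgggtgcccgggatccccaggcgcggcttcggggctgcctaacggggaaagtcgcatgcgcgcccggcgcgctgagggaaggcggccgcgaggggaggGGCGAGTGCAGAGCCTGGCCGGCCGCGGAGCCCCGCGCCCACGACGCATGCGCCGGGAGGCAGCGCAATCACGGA
Cry2 promoter: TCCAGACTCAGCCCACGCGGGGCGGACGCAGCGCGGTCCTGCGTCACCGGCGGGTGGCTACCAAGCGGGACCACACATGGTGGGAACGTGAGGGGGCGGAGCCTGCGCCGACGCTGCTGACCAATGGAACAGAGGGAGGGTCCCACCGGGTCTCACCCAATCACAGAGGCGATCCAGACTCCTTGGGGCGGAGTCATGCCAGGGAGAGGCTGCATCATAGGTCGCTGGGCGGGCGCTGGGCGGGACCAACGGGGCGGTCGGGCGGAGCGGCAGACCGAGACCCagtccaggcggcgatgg
Dbp promoter: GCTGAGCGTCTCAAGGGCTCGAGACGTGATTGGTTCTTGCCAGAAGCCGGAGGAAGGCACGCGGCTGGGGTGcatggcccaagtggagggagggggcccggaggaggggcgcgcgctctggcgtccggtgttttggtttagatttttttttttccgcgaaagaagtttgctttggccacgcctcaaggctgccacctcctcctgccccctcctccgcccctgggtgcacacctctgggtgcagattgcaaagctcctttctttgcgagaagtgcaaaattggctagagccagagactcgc
Hlf promoter: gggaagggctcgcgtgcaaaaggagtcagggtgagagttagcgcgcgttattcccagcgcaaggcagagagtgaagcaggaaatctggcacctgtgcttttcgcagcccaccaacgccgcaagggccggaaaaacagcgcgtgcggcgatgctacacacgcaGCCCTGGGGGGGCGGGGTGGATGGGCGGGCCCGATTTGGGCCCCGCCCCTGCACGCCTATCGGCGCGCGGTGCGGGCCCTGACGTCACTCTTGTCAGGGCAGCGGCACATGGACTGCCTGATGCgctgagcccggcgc
Of 300 bases each, 283 lay in an open region in Cry2, 124 in Clock, 124 in Hlf and 72 in Dbp. Their content of G and C was 76.3% in Clock, 70.3% in Cry2, 67.3% in Hlf and 60.3% in Dbp, against a median of 52.7% over 32851 RefSeq promoters of the same length. The open stretch of the Cry2 promoter covers nearly all of the window. That of the printed Clock promoter is split between 2 regions with a stretch outside both in the middle. In Dbp the open region ended 179 bp before the start. At the Clock start used for the distances here, the window chr5:76304499-76304798 (not printed) had 98 open bases in a single stretch at its upstream end.

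The motifs below were searched on both strands in the 12 RefSeq promoters that matched 9 of the 10 genes. Bhlhe40 had no promoter among those used and was not searched. The cAMP response element, TGACGTCA, is held by 1.79% of all promoters. Among the 9 clock genes searched it was found in Hlf alone, at bases 242 to 249 of the printed promoter, inside its open region. An E-box variant, CACGTT, is held by 4.68% of promoters and was found in Cry2, on the opposite strand at bases 85 to 90 and inside its open region, and in Nr1d1, 1266 bp from the nearest linked region. The canonical E-box CACGTG, held by 7.15% of promoters, was found at 3 places in Gm129 and at 1 in Per1. None of these lay in a linked region: the nearest match was 10621 bp from one in Gm129 and 1563 bp from one in Per1. The half-site of nuclear receptors, AGGTCA (16.3% of promoters), was found in Per1 and in a further Clock window, chr5:76303453-76303752, not described above. The D-box TTATGNAA (3.38%) was found in Per1. Each of these matches lay outside a linked region. These are matches of letters only.

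CLOCK is the E-box binding partner of BMAL1. Its gene (chr5:76212177-76304548, minus strand) was linked to 2 regions, chr5:76304701-76304817 at -252 bp, over an alternative RefSeq start of Clock, and chr5:76304994-76305120 at -572 bp, both shared with Gm7467 and Pdcl2. The region at -252 bp had heights of 17.0 in male 1, 29.0 in female 1 and 20.6 in female 2, with a peak called in all of them. The region at -572 bp had 14.1 in male 1, 27.0 in female 1 and 20.6 in female 2, with a peak called in male 1 alone. In male 2 neither region was called and the mean of both was 7.34. The 2 regions were close in height to each other in the 3 libraries where both are known, and Clock ranked last of the 10 genes by its mean height in females.

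NPAS2 can take the place of CLOCK. Its only region, chr1:39367685-39367947, lay 173536 bp from the Npas2 start, downstream of the gene (chr1:39194272-39363240, plus strand), covers the RefSeq start of the ribosomal protein gene Rpl31 and is shared with Rpl31 and Tbc1d8. Its height was 47.4 and 16.9 in males and 95.0 and 60.0 in females, the highest of the 10 clock genes in male 1 and in both females. The value linked to Npas2 is thus the openness at the start of a neighbouring gene.

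Per1 and Cry2 encode repressors of the CLOCK pair. Per1 (chr11:69098956-69109960, plus strand) was linked to chr11:69094750-69095321, with summits from -3692 to -4172 bp, and to chr11:69097086-69097220 at -1836 bp, both shared with Vamp2. The far region had heights of 43.1 and 43.3 in males and 66.0 and 43.6 in females and was called in all 4 libraries. The near region had 20.5 and 20.6 in males and 60.0 and 41.9 in females and was called in both females only. At the far region both males lay just under female 2, while at the near region both males were well below both females.

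Cry2 (chr2:92403646-92434069, minus strand) was linked to its promoter region, chr2:92434037-92434321, with its nearest summit at -75 bp, and to a region inside the gene, chr2:92425030-92425164, at 8949 bp. Both are shared with D930015M05Rik. The promoter region had heights of 39.6 and 33.8 in males and 79.0 and 55.1 in females and was called in all 4 libraries. The inner region had 31.1 and 11.7 in males and 40.0 and 38.6 in females and was called in the females only. The sexes did not overlap in scaled height at either region. The only 2 of the 25 regions (8.0%) with a peak in every library were the far region of Per1 and the promoter of Cry2. Over all merged regions the share was 19.9%.

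NR1D1 and RORA act on Arntl from opposite sides. Nr1d1 (chr11:98767935-98775242, minus strand) was linked to chr11:98773729-98774134 at 1194 bp inside the gene, shared with Thra, and to chr11:98783375-98783608 at -8150 bp, not shared. The inner region had heights of 32.5 and 18.4 in males and 60.0 and 45.2 in females, with peaks in the females only. The upstream region had 29.0 and 19.1 in males and 38.0 and 46.0 in females, with no peak called in male 1. Both males lay below both females in scaled height at each region.

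Rora (chr9:68653802-69379031, plus strand) had 5 regions, all inside the gene and from 287446 bp to 636022 bp from its start. No male library had a peak in any of them, and their mean height was 15.8 and 6.76 in males and 30.4 and 28.4 in females. In the order of position, the regions chr9:68941130-68941300, chr9:69044025-69044173, chr9:69092199-69092398, chr9:69259489-69259644 and chr9:69289757-69289871 had heights of 29, 21, 40, 23 and 39 in female 1. In female 2 they had 36.2, 24.7, 29.6, 27.9 and 23.8, and the first was not called there although it was the highest. The order of the 5 regions thus differed between the females.

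Dbp and Hlf encode proline and acidic amino acid-rich leucine zipper factors, which bind D-boxes. Dbp (chr7:45705247-45710203, plus strand) was linked to chr7:45704818-45705068 at -223 bp, shared with Car11 and Sphk2, and to chr7:45715219-45715455, 10049 bp from its start and downstream of the gene, shared with Sphk2, Rpl18, Fam83e and Spaca4. The promoter region had heights of 36.1 and 22.8 in males and 60.0 and 49.3 in females. The downstream region, 12 bp from a RefSeq start of Sphk2, had 38.2 and 22.8 in males and 63.0 and 44.4 in females. In male 2 the 2 regions had the same height, and a peak was called in the downstream one alone, so a missing call did not mark a lower height there.

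Hlf (chr11:90336535-90390917, minus strand) had 3 regions of its own, chr11:90390882-90391005 at -27 bp and, inside the gene, chr11:90382154-90382350 at 8645 bp and chr11:90355299-90355479 at 35509 bp. No male had a peak in any of the 3, and the mean height over them was 15.6 and 2.69 in males against 27.3 and 22.5 in females. In females the region over the start had heights of 24.0 and 14.0, and the inner regions had 34.0 and 32.1 at 8645 bp and 24.0 and 21.4 at 35509 bp. The mean of 2.69 in male 2 is the lowest of the 10 genes in any library and corresponds to 11 tags summed over the 3 regions.

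BHLHE40 and CIART are further repressors of the CLOCK pair. Bhlhe40 (chr6:108660629-108666925, plus strand) had 5 regions, all shared with 0610040F04Rik: chr6:108659474-108659650, chr6:108659768-108659879, chr6:108659969-108660166 and chr6:108660393-108660528, from -1109 to -117 bp, and chr6:108668416-108668581, downstream at 7851 bp. No male had a peak in any, and the mean height of the 5 was 22.6 and 8.08 in males against 41.6 and 37.6 in females. In female 1 they had heights of 36, 49, 57, 45 and 21. In female 2 the first 3 averaged 34.3 with no peak called, and the others had 51.0 and 34.5, so female 1 had peaks in all 4 upstream regions and female 2 in the nearest one alone.

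Gm129 (chr3:95878505-95882228, minus strand) had 1 region, chr3:95871483-95871646, downstream of the gene and 10676 bp from its start, which covers the RefSeq start of Mrps21 and is shared with Mrps21 and C920021L13Rik. Its height was 17.0 and 6.61 in males and 52.0 and 23.8 in females, and a peak was called in female 1 alone. As with Npas2, the openness linked to this gene lies at the start of a neighbour. From the gene starts used for the distances here, the summit was at -933 bp for Mrps21 and at 30 bp for C920021L13Rik.

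**Figure D1:**
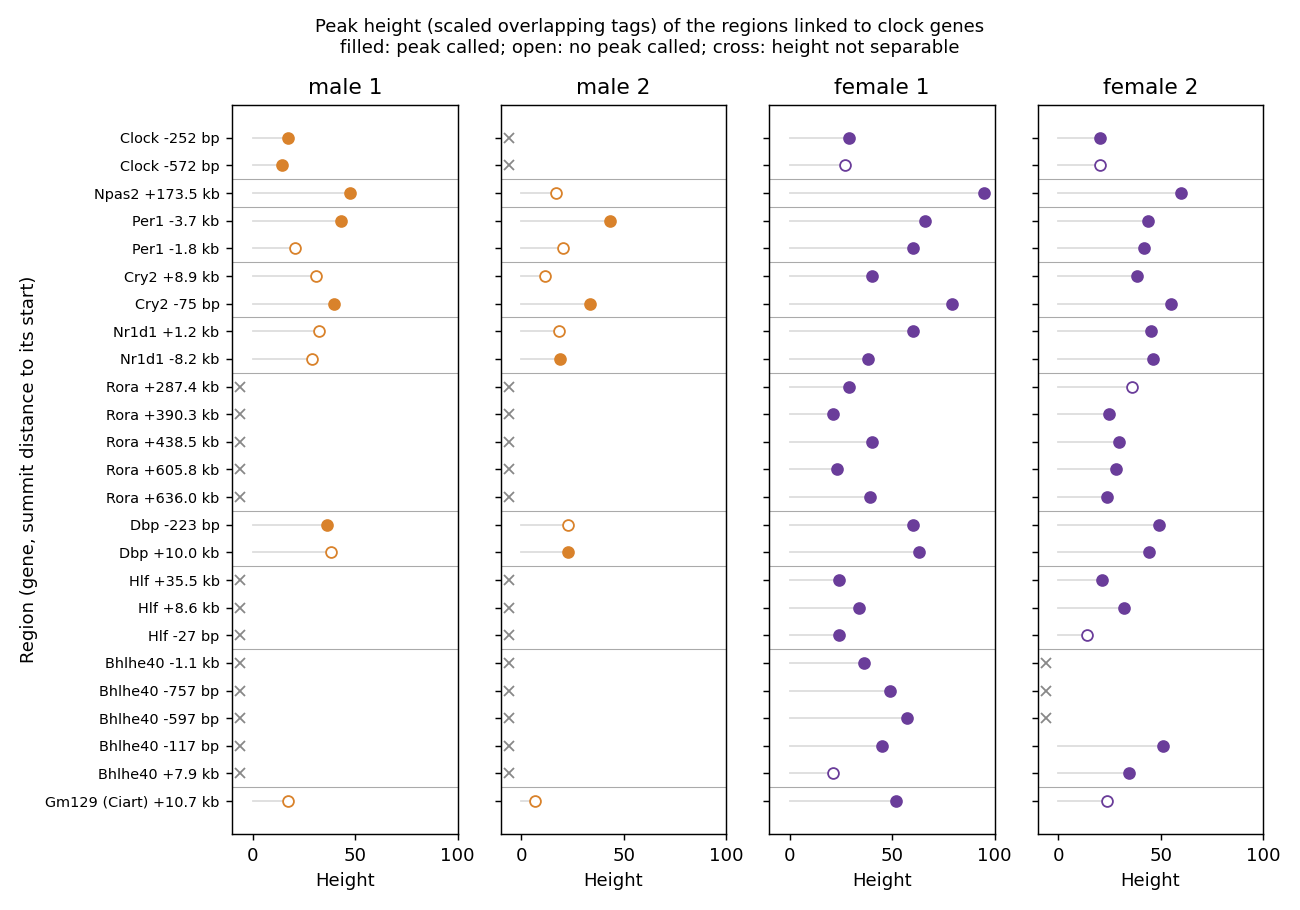
Height (scaled overlapping tags) of each of the 25 regions linked to the clock genes, 1 panel per library, with filled points where a peak was called, open points where none was, and crosses where only a mean over several regions is known. The male panels hold 6 and 4 filled points, the female panels 23 and 18.

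Peak calls were fewer in males at the clock regions. Of the 25 regions, 6 had a peak in male 1 (24.0%) and 4 in male 2 (16.0%), against 23 in female 1 (92.0%) and 18 in female 2 (72.0%); over all 12477 merged regions the shares were 43.0% and 32.4% in males and 79.9% and 62.8% in females. A peak in both females and in neither male was seen at 10 of the 25 regions, or 40.0%, against 12.9% of all merged regions. With a library left out, counting regions with a peak in no male kept and in every female kept, the shares were 52.0% against 27.3% of all merged regions without male 1, 48.0% against 16.2% without male 2, 44.0% against 23.3% without female 1 and 64.0% against 35.9% without female 2. The 10 regions were 4 of the regions of Rora, 2 of Hlf and 1 each of Per1, Cry2, Nr1d1 and Bhlhe40. At 17 of the 25 regions, or 68.0%, no male had a peak, against 46.3% of all merged regions. No clock region had peaks in both males and neither female, against 0.5% of all merged regions. The region of Clock at -572 bp, called in male 1 alone, was the only one with no female peak (4.0%, against 7.7% of all merged regions). By gene, Rora, Hlf and Bhlhe40 had peaks in both females and none in a male, 3 of 10 genes against 11.7% of all genes. Among the 40 other clock-related genes only Fbxl21, Ep300, Usp7 and Tipin had this pattern. No test was made, since 2 against 2 libraries cannot give an exact two-sided p below 0.33 and regions of a gene are not independent. A missing call did not always mark a low height: among genes with 1 region, the share of uncalled regions that reached the 25th percentile of called ones was 16.9% and 22.1% in the male libraries and 18.7% and 19.0% in the female libraries.

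**Figure D2:**
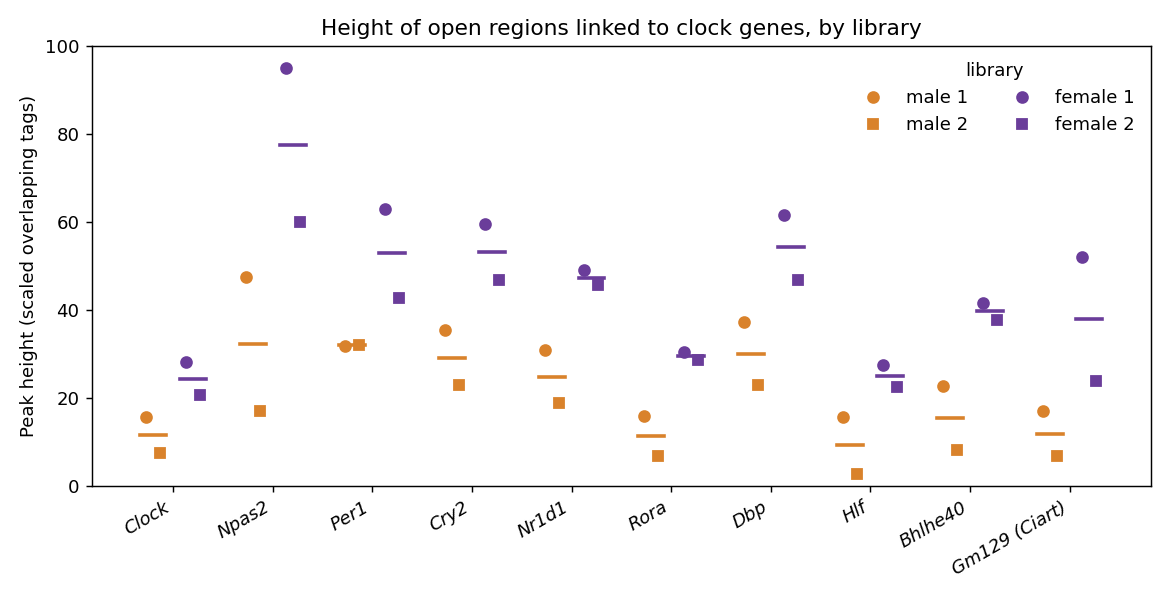
Height (scaled overlapping tags) linked to each clock gene in the 4 libraries, with a bar at the mean of each sex. In all 10 genes both male points lie below both female points.

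In every clock gene both males were lower than both females in height, which also held for 76.4% of all 11993 genes. In males the mean heights ran from 32.1 ± 21.5 for Npas2 to 9.12 ± 9.09 for Hlf, and in females from 77.5 ± 24.7 for Npas2 to 24.3 ± 5.27 for Clock (SD, n = 2 each). In males the order was Npas2, Per1, Dbp, Cry2, Nr1d1, Bhlhe40, Gm129, Clock, Rora and Hlf, and no neighbours in it were further apart than the larger of their SDs. In females the order was Npas2, Dbp, Cry2, Per1, Nr1d1, Bhlhe40, Gm129, Rora, Hlf and Clock, where only Nr1d1 over Bhlhe40 and Rora over Hlf were further apart than that. These are heights of regions and not expression of the genes.

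None of the 10 clock genes passed the threshold in the comparison of males with females (limma with trend, Benjamini-Hochberg adjusted p under 0.05 over all 11993 genes), in which 71 genes (0.592%) were lower and 0 (0.0%) higher in males. At an unadjusted p under 0.05, 6 of the 10 were lower in males by limma (Clock, Npas2, Rora, Hlf, Bhlhe40 and Gm129), against 31.4% of all genes. The widest differences of log2(height + 9) were those of Npas2 and Gm129. Npas2 averaged 32.1 ± 21.5 in males and 77.5 ± 24.7 in females (SD, n = 2 each), a difference of -1.15 (SE 0.41, limma adjusted p = 0.101). Gm129 averaged 11.8 ± 7.32 in males and 37.9 ± 19.9 in females, a difference of -1.15 (SE 0.37, limma adjusted p = 0.0935). Both lay at -0.52 when the median of all genes was taken as 0. The single pairs of a male and a female spread from -2.01 to -0.29 for Npas2 and from -1.97 to -0.34 for Gm129. In both genes this was wider than the difference itself. Without female 1, Npas2 was at -0.85 and Gm129 at -0.71, where the median of all genes was -0.49.

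Bhlhe40, Hlf and Rora followed. Bhlhe40 averaged 15.3 ± 10.3 in males and 39.6 ± 2.79 in females, with a difference of -1.06 (SE 0.38, limma adjusted p = 0.102), and Hlf 9.12 ± 9.09 in males and 24.9 ± 3.44 in females, with -1.0 (SE 0.35, limma adjusted p = 0.0992). Rora averaged 11.3 ± 6.42 in males and 29.4 ± 1.38 in females, with -0.96 (SE 0.36, limma adjusted p = 0.11). These 3 genes, with peaks in both females and none in a male, were thus 0.33 to 0.44 further down than the median of all genes on the log2 scale. Without male 2, Rora was at -0.63, Bhlhe40 at -0.62, Hlf at -0.46, Npas2 at -0.59 and Gm129 at -0.79. The median of all genes was then -0.40, so Hlf lay near that median. Over the single pairs of all 4 libraries Hlf spread from -1.64 to -0.36, wider than its difference. With all 4 libraries kept, the other 5 genes lay near the median of all genes, which was then -0.63. Nr1d1 was at -0.76 (limma adjusted p = 0.169), Clock at -0.72 (0.155), Cry2 at -0.72 (0.183), Dbp at -0.71 (0.186) and Per1 at -0.58 (0.252). Per1 averaged 31.9 ± 0.094 in males and 52.9 ± 14.3 in females, and it alone was above the median of all genes, by 0.05.

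**Figure D3:**
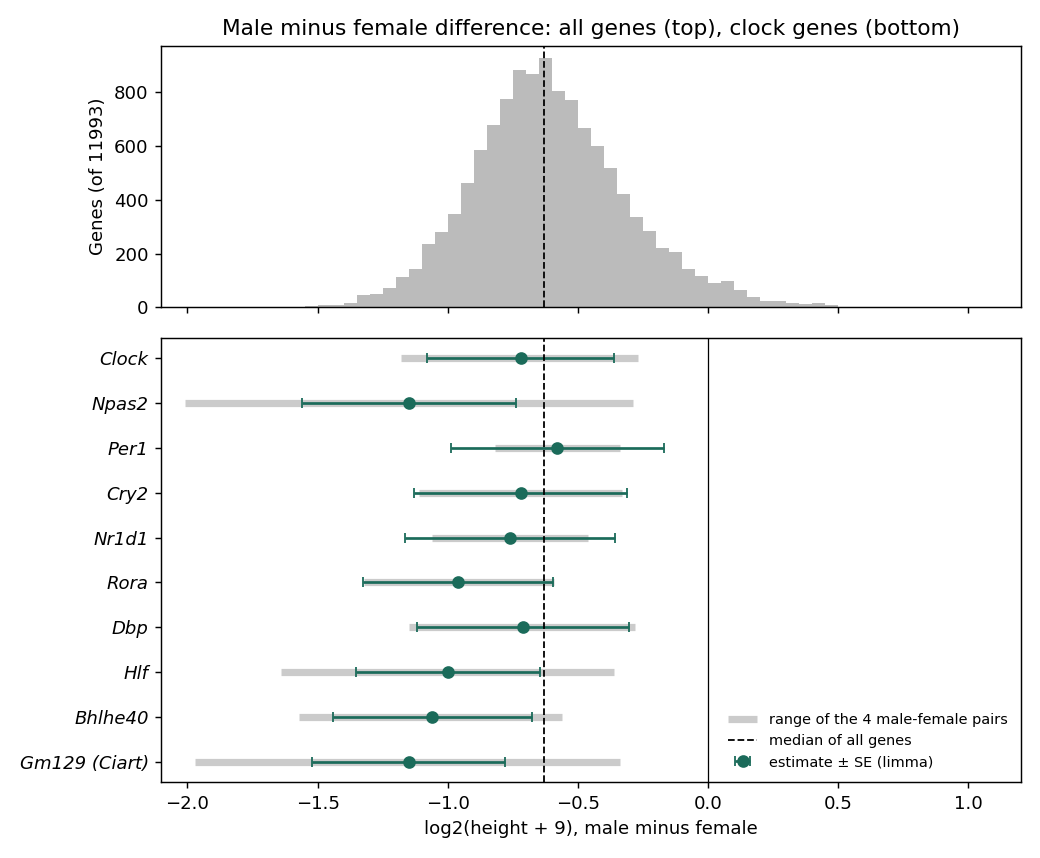
Difference of log2(height + 9), male minus female, as a histogram over 11993 genes (top) and for each clock gene (bottom), with the limma estimate and SE as point and whisker, the range over the 4 male-female pairs as a grey bar and the median of all genes dashed at -0.63. The clock genes lie between -1.15 and -0.58, within the range of all genes.

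Over the 10 genes the median difference was -0.86, which is -0.23 relative to all genes, and 9 of 10 were below the median of all genes. Male 2 contributed more of this distance than male 1. Relative to all genes, the clock median was -0.25 and -0.30 for male 2 against female 1 and female 2, and -0.11 and -0.08 for male 1 against the same females. Between the 2 males, male 1 minus male 2, the clock median was 0.62 against 0.47 over all genes. Without male 1 the clock median was -1.15 against -0.86 over all genes, and without male 2 it was -0.54 against -0.40. With each library centred on its median, none of the 10 had an unadjusted limma p under 0.05, beside 962 of all 11993 genes. The smallest limma adjusted p among the 10 was then 0.614.

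The ratio of 2 regions of a gene within a library does not depend on the library's scale, and it could be formed in all 4 libraries for Per1, Cry2, Nr1d1 and Dbp. In Per1 the far region was 2.1 and 2.11 times as high as the near one in males, against 1.10 and 1.04 times in females. The males thus had a lower near region relative to the far one, with no overlap between the sexes. In Cry2 the inner region over the promoter region gave 0.786 and 0.348 in males and 0.506 and 0.701 in females, and in Nr1d1 the inner over the upstream region gave 1.12 and 0.962 in males and 1.58 and 0.982 in females. In Dbp the promoter over the downstream region gave 0.944 and 1.0 in males and 0.952 and 1.11 in females. The sexes overlapped in all 3 of these genes. The Per1 ratio was looked at after the heights were seen. Among 1581 pairs of regions of a gene, 37.9% also had no overlap between the sexes and 13.4% were in addition at least as far apart as that of Per1, and an exact test of 2 against 2 libraries cannot go below 0.33 (two-sided).

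**Figure D4:**
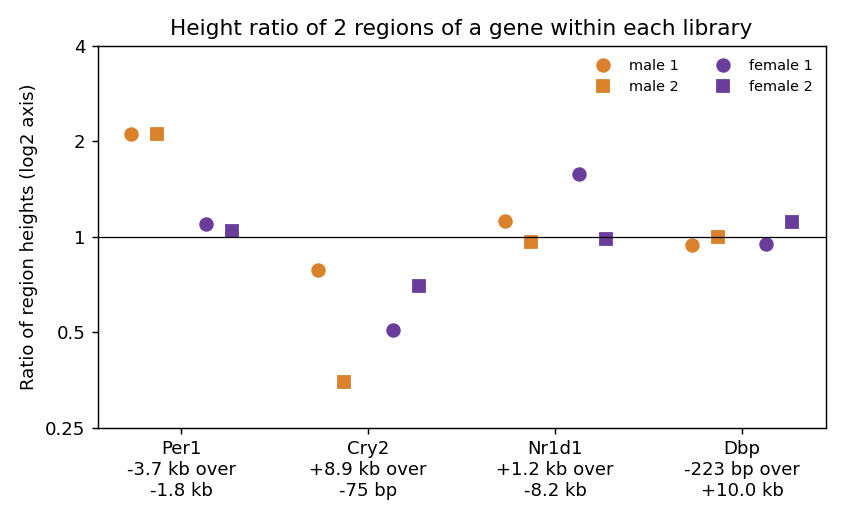
Ratio of the heights of 2 regions of the same gene within each library (log2 axis), for the 4 clock genes in which both heights could be had in all libraries. In Per1 the male points sit at 2.1 and 2.11 and the female points at 1.10 and 1.04; the sexes overlap in the other 3 genes.

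Other genes of the clock were taken from 3 lists with 47 names, of which 40 were in the gene table. None of the 40 was called by limma in either direction; 16 were lower in males at an unadjusted p under 0.05, against 31.4% of all genes, and 0 were higher. Both males were below both females in 35, against 76.4% of all genes, and the median difference was -0.70, or -0.08 relative to all genes. Of 13 transcriptional loop genes 10 were tested, and 3 of these had an unadjusted limma p under 0.05 beside 31.4% of all genes. The median of this list was -0.63, or 0.0 relative to all genes. Arntl2, the paralogue of BMAL1, had heights of 26.9 and 11.7 in males and 64.0 and 51.0 in females. The difference of Arntl2 was -1.28 (limma adjusted p = 0.0843). Its region lay at -9482 bp. Cry1, the partner repressor of CRY2, had 20.1 and 8.44 in males and 38.0 and 34.1 in females (-1.0, limma adjusted p = 0.11). The males of both genes were below the females without overlap. Tef, a relative of Dbp and Hlf, differed by -0.86 (limma adjusted p = 0.142). The repressor genes Per3 and Per2 differed by -0.69 and -0.60 (limma adjusted p = 0.188 and 0.221). Arntl, the partner of CLOCK, differed by -0.65 (limma adjusted p = 0.203). The rest of this list, Bhlhe41, Timeless, Tipin and Nr1d2, differed by -0.54, -0.40, -0.32 and -0.31, all above the median of all genes.

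Among kinases, phosphatases and the ubiquitin system, which set the stability of the clock proteins, 16 of 20 genes were tested, 8 passed the unadjusted threshold beside 31.4% of all genes, and the median was -0.74. The phosphatase subunits Ppp1ca and Ppp1cb differed by -1.09 and -1.03 and Fbxl21, which acts on the stability of CRY proteins, by -0.97 (limma adjusted p = 0.11, 0.118 and 0.11). Among cofactors of the loop all 14 were tested, 5 passed it beside the same 31.4% of all genes, and the median was -0.66. The histone methyltransferase gene Mll1 (current symbol Kmt2a) differed by -1.19, its complex member Wdr5 by -0.86 and the ubiquitin ligase scaffold Cul4a by -0.87 (limma adjusted p = 0.0945, 0.142 and 0.143).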

How the data were processed

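ATAC-seq was done on 4 libraries, 2 male and 2 female. The submitters' processing notes list BWA, MACS2 2.1.0 and the build mm10; which version of BWA was run, how reads were filtered and whether Tn5 cut sites were shifted is not stated there. The deposited signal is a peak height, scaled by the authors with 1 factor per library, and peaks called per library were merged into regions, per the file headers. Heights of genes with 1 region were whole multiples of 1 step per library, within 0.02 of a step, in 100.0% of cases. The steps were 0.707 and 0.734 in males and 1.0 and 0.822 in females. The number of unused per-library columns was 0.

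The height of a region was read from genes linked to it alone, else from the summit of its called peak, else as the remainder of the gene's mean. The upstream region of Nr1d1 was an exception. Its height was the remainder in all 4 libraries, also where its peak was called, because the inner region was read from a gene linked to it alone. In genes with 1 region that summit equalled the height in 96.0% and 94.5% of cases in males and in 98.7% and 97.9% in females. In genes with several regions, all called, the mean of the summits equalled the height in 90.0% and 88.6% of cases in males and in 97.1% and 94.4% in females, so some region heights taken this way can be wrong.

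Values were taken as log2(height + 9), which understates the change of low genes, and compared with limma 3.58.1 with trend in R 4.3.3; a height above 0 was required in 2 or more libraries, which all 11993 genes met. The alternatives covered the pseudocount, filters, scaling, a replicate block, the variance model, fitting each set of regions as 1 row, and leaving out each library. Promoters came from RefSeq. All clock genes, their sharing genes and, of the wider lists, the 6 or 3 genes with the smallest p were named. Further genes of the wider lists were named for their peak pattern or as the rest of the transcriptional loop list. The clock genes and the lists were chosen with earlier results of these data known. Python 3.11.15, pandas 2.3.3, numpy 2.4.6 and matplotlib 3.10.9 were used.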

Additional observations from a re-analysis of the deposited data

How the results depend on the processing

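The count of clock genes past the limma threshold was 0, the same fit as with no filter, since all 11993 genes met it. It stayed 0 with pseudocounts of 1 and 36, both other scalings and a row per set of regions. It was also 0 without the lowest genes, where Clock and Hlf fell out and 8 of the 10 were tested. It was 2 without the variance trend (Npas2 and Gm129, limma adjusted p = 0.0447 and 0.0442), and 0 to 9 with each library left out, where the lone sample of a sex is assumed to vary like the other sex. Over all genes the count was 71 (0 without the lowest genes, up to the 25th percentile of mean height, 0 with median centring, 0 with quantile normalization, 416 without the trend, and 0 without male 2 to 6419 without male 1). In the wider list it was 0 (2 without the trend, 0 to 26 with a library left out). With the replicate number as a block, 9 clock genes, 25 of the wider list and 6925 of all genes passed, but the labels do not pair the samples. The deviations of same-numbered samples correlated with r = 0.017 over 11993 genes, a measure that cannot see a shift of a whole library. Replicate 1 was above replicate 2 in both sexes, by a median over all genes of 0.47 in males and 0.28 in females. Whether same-numbered samples belong together was not tested. The median of the clock genes, -0.86, was -0.24 with centring, -0.26 with quantile normalization, -1.23 with a pseudocount of 1, -0.46 with one of 36 and -1.15 to -0.54 with a library left out. Per1 turned to 0.04 and 0.05 and Per2 to 0.02 and 0.02 with centring and quantile normalization, which by construction remove the median shift of -0.63 over all genes. Relative to all genes the clock median stayed between -0.39 and -0.12 in all settings run. The causes of the other changes were not tested. Having 2 libraries per sex, unknown depth and a gap in median height between the sexes limits these results.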

Other observations

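Divided by the step of each library, the far region of Per1 had 61 and 59 overlapping tags in the males and 66 and 53 in the females. Its near region had 29 and 28 tags in the males and 60 and 51 in the females. In tags, the far region overlapped between the sexes and the near region did not. The inner region of Cry2 (44 and 16 tags in males, 40 and 47 in females) also overlapped in tags, though not in scaled height. So did the upstream region of Nr1d1 (41 and 26 in males, 38 and 56 in females). In the downstream region of Dbp (54 and 31 in males, 63 and 54 in females) male 1 equalled female 2. The promoter region of Cry2 and the inner region of Nr1d1 did not overlap in tags. Tags are not scaled between libraries and the depth is unknown, so overlap in tags does not show equal openness. The Rora regions summed to 112 and 46 tags in the males, and those of Bhlhe40 to 160 and 55 tags, so male 1 and male 2 were far apart in both genes before scaling as well.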
